A study of Mus musculus with 34 samples.

Results

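The 10 genes examined here make, break down or sense prostaglandins, and were followed in the kidneys of 34 mice. They are *Pla2g4a*, *Ptgs1*, *Ptgs2*, *Ptges*, *Ptgds*, *Ptgis*, *Hpgd*, *Ptger1*, *Ptger2* and *Ptger4*, and were chosen by name from the prostaglandin pathway. All 10 were among the 23509 genes of the count tables, and all 10 were among the 15644 genes that passed the filter on low counts. Kidney polyA RNA was profiled by RNA sequencing on postnatal day 28 (P28) in C57BL6 mice. *Pkd2*-KO mice, in which floxed *Pkd2* alleles are deleted by a Cre recombinase under the *Pkhd1* promoter that is active in collecting ducts, received subcutaneous injections of PBS (n = 11) or of RGLS4326 at 20 mg per kg (n = 11) on P10, P11, P12 and P19. Age-matched untreated mice without the transgenes (UNT, n = 12) were the controls. The labels spell the genotype "Pdk2KO", and each library was taken as 1 mouse. Since the whole kidney was sequenced, tissue in which Cre is not active is part of every sample. RGLS4326 is a short, chemically modified oligonucleotide that pairs with the seed of the microRNA miR-17. A UNT mouse differed from a PBS-treated mouse in genotype and in injection together, so these cannot be told apart.

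Prostaglandins are lipid signals made on demand from arachidonic acid. A phospholipase A2 frees arachidonic acid from membranes, a cyclooxygenase turns it into prostaglandin H2, and dedicated synthases turn that into prostaglandin E2, prostaglandin D2 or prostacyclin. Prostaglandin E2 acts on 4 EP receptors: EP2 and EP4 raise cyclic AMP, EP3 lowers it and EP1 raises calcium. In the kidney, prostaglandin E2 influences blood flow, renin release and salt and water handling by the collecting duct, and cyclic AMP promotes growth and fluid secretion of cysts in polycystic kidney disease.

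RGLS4326 pairs with the seed of miR-17, so the seed and its matches in these genes are shown first. The mature miR-17 sequence is from RefSeq (chr14:115043684-115043706, plus strand, GRCm38), with the seed, bases 2 to 8, in capitals. Messages were searched for GCACTTT, which pairs with all seed bases, for the shifted match CACTTTA and for GCACTTTA, which contains both, on the strand of the mRNA in the longest 3′UTR annotated by GENCODE M21 on GRCm38. Such a match was held by 3116 of the 14200 tested genes with a 3′UTR (21.9%). Of the 10 genes, only *Ptgs2* (chr1:150106990-150107014, plus strand, from 3′UTR base 1217 of 2445) and *Ptger1* (chr8:83671149-83671173, plus strand, from base 1625 of 3220) held a match, CACTTTA in each, shown in capitals with the bases around it.
mmu-miR-17-5p: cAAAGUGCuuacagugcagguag
*Ptgs2* 3′UTR: tctcgtggtCACTTTActacgagaa
*Ptger1* 3′UTR: taagtatccCACTTTAcaactacag
The levels of these 2 genes under RGLS4326 are given below with the others. A match is a string of letters and was not tested as a binding site.

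A library held between 17603122 and 54981992 reads in genes. The deleted gene, *Pkd2*, was at 274 ± 34.4 CPM in UNT mice, where CPM are counts relative to library size, and at 160 ± 32.2 CPM in PBS-treated mice (SD), with every PBS-treated mouse below every UNT mouse. Reads that fell in no annotated gene made up 9.84% to 11.35% of reads in UNT libraries, 5.18% to 9.0% in PBS libraries and 4.94% to 12.01% in RGLS4326 libraries. In 4 RGLS4326 libraries (mice 5, 6, 7 and 11) this share was above that of every PBS library, from 11.32% to 12.01%. Numbering of the libraries starts again within the table names, which divides the libraries into 3 numbering sets that each hold all 3 groups. Mice 5, 6 and 7 are all 3 RGLS4326 libraries of set 2, and mouse 11 is in set 3. Values without those 4 libraries and within numbering sets are given where they change a result. CPM were scaled by TMM factors. Changes are log2 fold changes with a standard error (SE) from edgeR's quasi-likelihood test, and adjusted p is its Benjamini-Hochberg value over all 15644 tested genes, called at under 0.05.

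**Figure D1:**
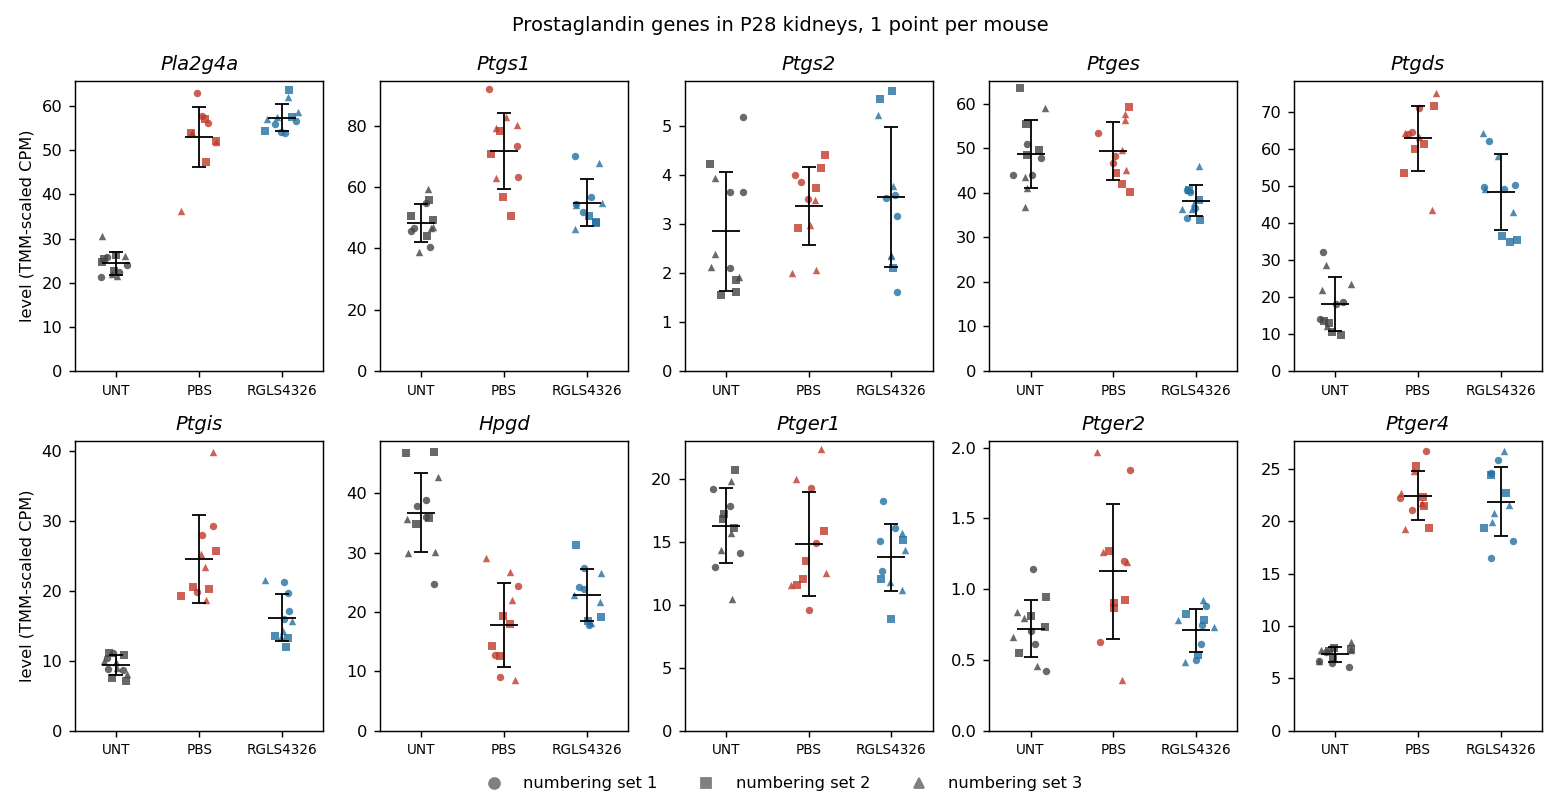
Level of each gene (vertical axis, TMM-scaled CPM, starting at 0) in UNT (n = 12), PBS (n = 11) and RGLS4326 (n = 11) mice, 1 point per mouse, with the marker shape giving the numbering set and the bar the mean ± SD. The PBS and UNT points do not overlap for *Pla2g4a*, *Ptgds*, *Ptgis* and *Ptger4*.

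The first comparison asks which prostaglandin genes differ in the cystic kidney. In PBS-treated *Pkd2*-KO kidneys 6 of the 10 genes rose and 1 fell against UNT kidneys. The genes that rose were the phospholipase *Pla2g4a*, the cyclooxygenase *Ptgs1*, the synthases *Ptgds* and *Ptgis* and the receptors *Ptger2* and *Ptger4*, and the degrading enzyme *Hpgd* fell. *Ptgs2*, *Ptges* and *Ptger1* did not pass the test. Most of the kidney transcriptome changed in this comparison: 82.1% of all tested genes were called, 43.1% as higher and 39% as lower, so 7 of 10 is no higher share than that of all genes. The median log2 fold change of the 10 genes was 0.61, beside 0.038 over all tested genes. In whole tissue, more cells of a type and more RNA per cell cannot be told apart.

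*Pla2g4a* (chr1:149829618-149961290, minus strand) encodes cytosolic phospholipase A2 alpha, which frees arachidonic acid. Its level in UNT mice ran from 21.3 to 30.6 CPM with a median of 24.4, and in PBS-treated mice from 36.3 to 62.9 CPM with a median of 54.0. All PBS-treated mice were above all UNT mice, and the lowest of them, mouse 9, stood apart from the next. The log2 fold change was 1.12 (edgeR adjusted p = 9.16e-18, SE 0.06), a 2.17-fold difference.

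The cyclooxygenases differed from each other in level more than between groups. *Ptgs1* (chr2:36230426-36252272, plus strand) encodes the constitutive cyclooxygenase and *Ptgs2* (chr1:150100031-150108227, plus strand) the inducible isoform, which in the healthy kidney is found in the macula densa, thick ascending limb and medullary interstitial cells. *Ptgs1* ranged from 38.7 to 59.4 CPM in UNT mice (median 46.8) and from 50.6 to 92.0 CPM in PBS-treated mice (median 73.3). Of the 11 PBS-treated mice, 9 were above the highest UNT mouse. The log2 fold change was 0.57 (edgeR adjusted p = 1.94e-07, SE 0.09). It was 0.66, 0.33 and 0.67 in numbering sets 1, 2 and 3 and 0.27 when adjusted for reads outside genes, each called. All UNT libraries had a higher share of these reads than all PBS libraries. In PBS vs UNT that adjustment therefore cannot separate the share from the group. *Ptgs2* was low and variable, from 1.56 to 5.19 CPM in UNT mice (median 2.26, coefficient of variation 42.5%) and from 2.0 to 4.41 CPM in PBS-treated mice (median 3.51). These groups overlapped almost fully, and the log2 fold change of 0.24 (edgeR adjusted p = 0.302, SE 0.21) was about as large as its error. With the adjustment for reads outside genes, which has the same limit, *Ptgs2* was called higher (0.70). In numbering sets 1, 2 and 3 *Ptgs2* was at 0.01, 0.68 and 0.01, not called. Per exon length, *Ptgs1* exceeded *Ptgs2* by a median of 23.9 times in UNT mice (range 10.4 to 36.9) and 24.6 times in PBS-treated mice (range 15.2 to 46.8). *Ptgs2* had only 29 to 189 counts per library over all mice, against 830 to 4255 for *Ptgs1*.

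The 3 terminal synthases did not move together. *Ptgds* (chr2:25466709-25470046, minus strand), the lipocalin-type prostaglandin D synthase, showed the largest fitted rise of the 10 genes. It was at 9.79 to 32.2 CPM in UNT mice (median 16.1) and at 43.4 to 75 CPM in PBS-treated mice (median 64.0). The groups did not overlap, and the log2 fold change was 1.80 (edgeR adjusted p = 1.35e-12, SE 0.16), or 3.49-fold. *Ptgis* (chr2:167191805-167240604, minus strand), the prostacyclin synthase, stood at 7.12 to 11.1 CPM in UNT mice (median 9.42) and 18.7 to 39.8 CPM in PBS-treated mice (median 23.4). Again no PBS-treated mouse was as low as any UNT mouse, and the log2 fold change was 1.39 (edgeR adjusted p = 3.64e-13, SE 0.12). *Ptges* (chr2:30889471-30929863, minus strand), the inducible microsomal prostaglandin E synthase, covered nearly the same range in UNT mice (36.8 to 63.6 CPM, median 48.1) and PBS-treated mice (40.1 to 59.2 CPM, median 48.2). Its log2 fold change was 0.02 (edgeR adjusted p = 0.835, SE 0.08). Scaling to total reads alone raised the median of all genes from 0.038 to 0.334 and gave *Ptges* 0.30 and *Ptgs2* 0.54, both called, which for *Ptges* is under that shift.

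*Hpgd* (chr8:56294585-56321043, plus strand) encodes the hydroxyprostaglandin dehydrogenase that begins the inactivation of prostaglandin E2. It was at 24.8 to 47.0 CPM in UNT mice (median 36.0) and at 8.58 to 29.1 CPM in PBS-treated mice (median 17.9). In 9 of 11 PBS-treated mice the level was below that of every UNT mouse. The log2 fold change was -1.04 (edgeR adjusted p = 3.81e-07, SE 0.16), to 0.487 of the UNT level. It was -1.20, -1.39 and -0.68 in numbering sets 1, 2 and 3, each called. *Hpgd* was also among the more variable genes in cystic kidneys, with a coefficient of variation of 39.6% in PBS-treated mice against 18.0% in UNT mice. The ratio of *Ptges* to *Hpgd* per exon length within a mouse, making over breaking down, had a median of 0.523 in UNT mice (range 0.41 to 0.837) and 1.06 in PBS-treated mice (range 0.72 to 2.88).

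Among the EP receptors, *Ptger4* and *Ptger2*, which raise cyclic AMP, rose, and *Ptger1* did not pass the test. *Ptger4* (chr15:5206661-5244187, minus strand; EP4) was tightly held within groups, at 6.12 to 8.51 CPM in UNT mice (median 7.55) and 19.3 to 26.7 CPM in PBS-treated mice (median 22.2). The log2 fold change was 1.62 (edgeR adjusted p = 2.31e-20, SE 0.08), or 3.08-fold, with no overlap. Its exons overlap genes on the opposite strand over 1.23% (*Ttc33*) and 15.27% (the pseudogene *Gm15937*) of their bases. *Ptger2* (chr14:44988195-45003820, plus strand; EP2) was the least abundant of the 10 genes, with 11 to 65 counts per library. It stood at 0.419 to 1.14 CPM in UNT mice (median 0.717) and 0.356 to 1.97 CPM in PBS-treated mice (median 1.19). The PBS group held the lowest mouse of both groups and also 6 mice above every UNT mouse, and the log2 fold change was 0.65 (edgeR adjusted p = 0.0028, SE 0.20). *Ptger2* was higher in PBS within each numbering set (0.76, 0.36 and 0.81 in sets 1, 2 and 3) but was called in none of them. *Ptger1* (chr8:83666678-83672753, plus strand; EP1) was at 10.5 to 20.7 CPM in UNT mice (median 16.5) and 9.56 to 22.4 CPM in PBS-treated mice (median 13.5), with a log2 change of -0.13 (edgeR adjusted p = 0.336, SE 0.13). In numbering sets 1, 2 and 3 it was -0.18, -0.45 and 0.13, called lower in set 2 only. It was also called lower (-0.41) when adjusted for reads outside genes, a share that cannot be separated from the group here. The strand setting of the counting was not given, and the *Ptger1* level is uncertain for that reason.

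In total 4 of the 10 genes (*Pla2g4a*, *Ptgds*, *Ptgis* and *Ptger4*) had PBS and UNT groups that did not overlap, a pattern held by 42.5% of all tested genes. The remaining EP receptor, *Ptger3* (EP3), which lowers cyclic AMP, moved the other way: it fell from 47.4 ± 7.83 to 19.2 ± 4.99 CPM (SD), a log2 change of -1.30 (edgeR adjusted p = 2.06e-12, SE 0.12). Per exon length *Ptger3* was at 8.33 ± 1.38 CPM per kb in UNT mice against 1.1 ± 0.106 for *Ptger4* and 0.139 ± 0.0393 for *Ptger2*. In PBS-treated mice *Ptger3* and *Ptger4* were at the same level per length, 3.37 ± 0.878 and 3.38 ± 0.35 CPM per kb.

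**Figure D2:**
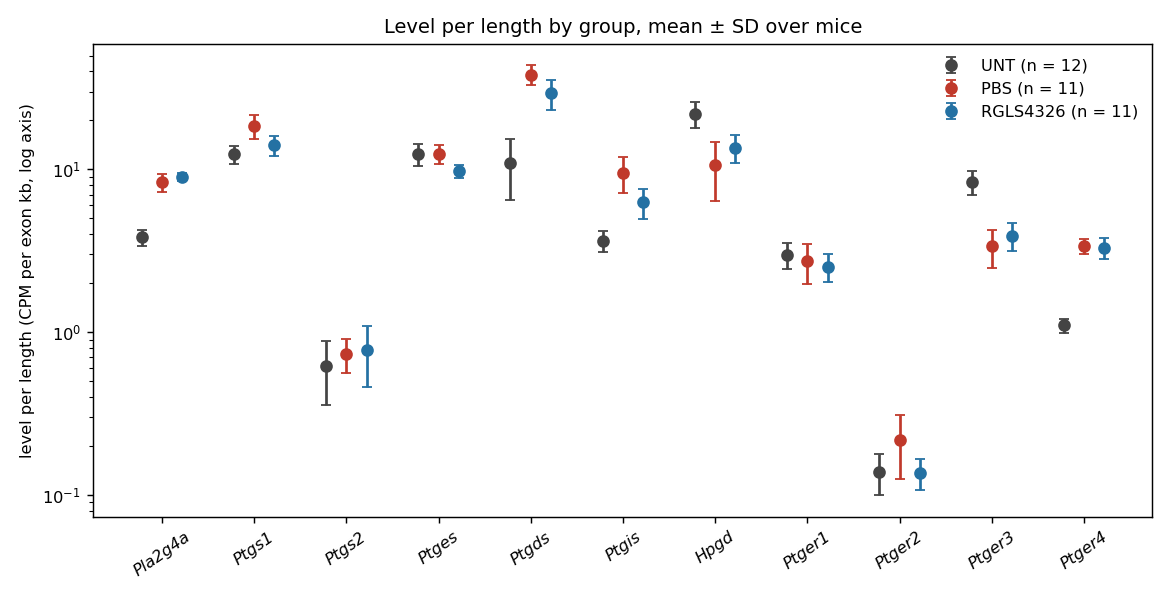
Mean level per exon length (vertical axis, CPM per kb, log axis) of the 10 genes and of *Ptger3* in UNT, PBS and RGLS4326 mice, with bars giving the SD over mice. *Hpgd* was the highest of the 10 in UNT mice (21.8) and *Ptgds* in PBS-treated mice (38.1), and *Ptger2* was the lowest in all 3 groups.

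The order of levels per exon length also changed. In UNT mice *Hpgd* led with 21.8 ± 3.94 CPM per kb (SD), followed by *Ptgs1*, *Ptges* and *Ptgds* at 12.4 ± 1.58, 12.4 ± 1.96 and 10.9 ± 4.41, which lie within 1 SD of each other. Below them came *Pla2g4a* (3.82 ± 0.418), *Ptgis* (3.65 ± 0.53) and *Ptger1* (2.99 ± 0.543), then *Ptger4*, *Ptgs2* (0.623 ± 0.264) and *Ptger2*. In PBS-treated mice *Ptgds* led with 38.1 ± 5.33, and *Ptgs1* followed with 18.5 ± 3.18. There *Ptges* (12.5 ± 1.65), *Hpgd* (10.6 ± 4.2), *Ptgis* (9.55 ± 2.43) and *Pla2g4a* (8.3 ± 1.07) came next. Within 1 SD the spreads of neighbours among these 4 overlapped, while *Ptgs1* and *Ptges*, and *Ptges* and *Pla2g4a*, did not. The mean of *Ptger4* (3.38 ± 0.35) was above that of *Ptger1* (2.72 ± 0.755), but their spreads overlapped within 1 SD. Lengths are of all annotated exons of a gene, not of the transcripts expressed here.

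The second comparison asks which of these genes differ after RGLS4326. Against PBS, 4 of the 10 genes were called and all 4 were lower with RGLS4326: the cyclooxygenase *Ptgs1*, the synthases *Ptges* and *Ptgis* and the receptor *Ptger2*. None of the 10 was called higher by edgeR or by DESeq2, and 1 (*Hpgd*) was higher at an unadjusted p under 0.05. That threshold was passed in either direction by 6 of the 10 genes and by 7262 of the 15644 tested genes. Over all tested genes, 33.8% were called, 15.3% as higher and 18.5% as lower. The share of 4 in 10 is therefore near that of all genes. The median log2 fold change of the 10 genes was -0.24, beside 0.002 over all tested genes. None of the 10 genes had groups without overlap, which 0.0639% of all tested genes had.

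*Ptgs1* was at 46.3 to 70.1 CPM in RGLS4326-treated mice (median 54.2), against 50.6 to 92.0 CPM with PBS. All 11 treated mice were below the PBS mean and 4 were below the lowest PBS mouse. The log2 fold change was -0.39 (edgeR adjusted p = 0.00334, SE 0.09), to 0.764 of the PBS level. Within numbering sets 1, 2 and 3 it was -0.38, -0.37 and -0.45.

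*Ptges* was at 34 to 46.0 CPM in RGLS4326-treated mice (median 37.7), against 40.1 to 59.2 CPM with PBS, and 7 of the 11 treated mice were below the lowest PBS mouse. Its log2 fold change was -0.37 (edgeR adjusted p = 0.00258, SE 0.08), to 0.775 of the PBS level. The differences within numbering sets 1, 2 and 3 were -0.37, -0.29 and -0.42. Of these 4 genes only *Ptges* was not called in PBS vs UNT.

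*Ptgis* was at 12.0 to 21.5 CPM with RGLS4326 (median 15.7), against 18.7 to 39.8 CPM with PBS, and 8 treated mice were below every PBS mouse. Its log2 fold change was -0.61 (edgeR adjusted p = 0.0015, SE 0.12), to 0.657 of the PBS level. PBS mouse 11 stood apart at 39.8 CPM, and refits that left out 1 mouse at a time gave -0.66 to -0.51, all called. In numbering sets 1, 2 and 3 the difference was -0.47, -0.72 and -0.73.

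*Ptger2* was at 0.488 to 0.925 CPM with RGLS4326 (median 0.75), against 0.356 to 1.97 CPM with PBS. Every treated mouse was below the PBS mean, but none was below the lowest PBS mouse. The log2 fold change was -0.66 (edgeR adjusted p = 0.0154, SE 0.20), on counts of 11 to 33 per treated library. In numbering sets 1, 2 and 3 it was -0.83, -0.46 and -0.70. Requiring more than 1 CPM in 11 libraries removed *Ptger2* from the test.

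The other 6 genes did not pass the test in this comparison. *Ptgds* was at 34.7 to 64.2 CPM with RGLS4326 (median 49.2), against 43.4 to 75 CPM with PBS, with a log2 change of -0.38 (edgeR adjusted p = 0.0617, SE 0.16). Its call depended on the procedure. It was called lower by DESeq2, with upper quartile scaling and with scaling to total reads. A fit of these groups alone, numbering set as a covariate and a block by replicate number also called it lower. The difference in *Ptgds* was -0.78 in numbering set 2 but -0.33 and -0.20 in sets 1 and 3. *Hpgd* was at 17.8 to 31.3 CPM (median 22.8), with a log2 change of 0.35 (edgeR adjusted p = 0.0867, SE 0.16), and was called higher when PBS mouse 8 or PBS mouse 10 was left out (0.45 at most). The *Ptges* to *Hpgd* ratio per exon length had a median of 0.717 with RGLS4326 (range 0.554 to 0.967), against 1.06 with PBS and 0.523 in UNT mice, and all 3 ranges overlapped.

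*Pla2g4a* and *Ptger4*, which were among the genes raised in PBS-treated kidneys without overlap, were close to the PBS level with RGLS4326. *Pla2g4a* was at 54.0 to 63.6 CPM (median 57.0), a log2 change of 0.11 (edgeR adjusted p = 0.161, SE 0.07). *Ptger4* was at 16.5 to 26.7 CPM (median 21.6), a log2 change of -0.04 (edgeR adjusted p = 0.702, SE 0.08).

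The seed-matched genes did not pass the test either. *Ptgs2* was at 1.61 to 5.71 CPM with RGLS4326 (median 3.54), a log2 change of 0.08 (edgeR adjusted p = 0.795, SE 0.22), and the difference was -0.32, 0.24 and 0.38 in numbering sets 1, 2 and 3. *Ptger1* was at 8.91 to 18.3 CPM (median 14.4), a log2 change of -0.11 (edgeR adjusted p = 0.531, SE 0.13). With an SE of 0.22 and a coefficient of variation of 40.4% between mice, a difference of the size of that in *Ptgs1* or *Ptges* could easily have been missed for *Ptgs2*.

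**Figure D3:**
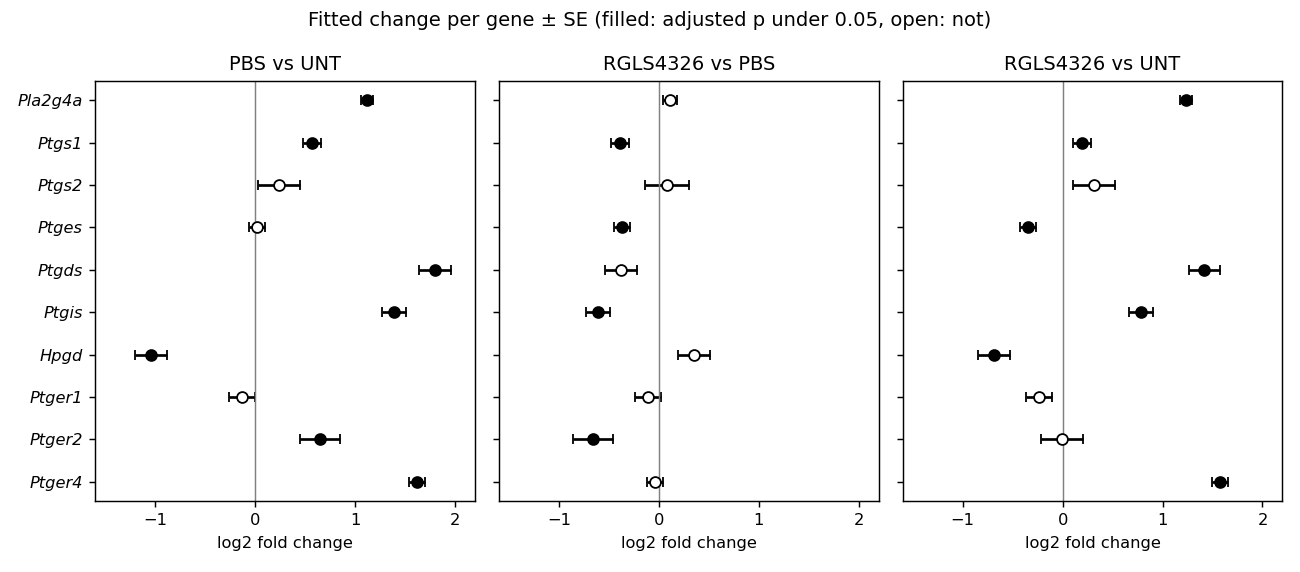
Log2 fold change (horizontal axis) of each of the 10 genes (rows) in PBS vs UNT, RGLS4326 vs PBS and RGLS4326 vs UNT, with bars giving the SE and filled points an edgeR adjusted p under 0.05. The filled points of RGLS4326 vs PBS all lie left of 0, from -0.66 (*Ptger2*) to -0.37 (*Ptges*).

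The share of reads outside genes varied most among the RGLS4326 libraries, and is set beside the values here. In the 4 RGLS4326 libraries with the highest share, *Ptgs1* was at 46.3 to 50.5 CPM, below the other 7 RGLS4326 libraries (52.0 to 70.1 CPM). *Ptgds* was at 34.7 to 42.8 CPM in those 4 and at 49.1 to 64.2 CPM in the other 7. *Ptgis* was at 12.0 to 14.2 CPM in those 4 and at 13.4 to 21.5 CPM in the other 7. *Ptges* overlapped between them (34 to 40.6 and 34.3 to 46.0 CPM), and so did *Ptger2* (0.534 to 0.925 and 0.488 to 0.878 CPM). Without those 4 libraries the log2 fold change was -0.29 for *Ptgs1*, -0.34 for *Ptges*, -0.46 for *Ptgis* and -0.72 for *Ptger2*, and *Ptges* alone was called. With this share entered as a covariate the values were -0.24, -0.30, -0.42 and -0.71, and none was called by edgeR. In that fit 5 of the 10 genes had an unadjusted p under 0.05, beside 3199 of the 15644 tested genes. The same alternatives left few calls over the whole transcriptome, 332 of 15837 genes (2.1%) without the 4 libraries and 89 of 15644 (0.569%) with the covariate. All 4 genes were lower with RGLS4326 in each numbering set, where edgeR called none of the 10 in set 1, 2 (*Ptgds* and *Ptgis*) in set 2 and none in set 3. At an unadjusted p under 0.05 there were 4, 4 and 3 of the 10 in these sets, beside 3421 of 15737, 6361 of 15944 and 2826 of 15676 tested genes. The calls over all genes in sets 1, 2 and 3 numbered 54, 4065 and 0. DESeq2 was not run within sets. Set 2, with the most calls, is the set whose RGLS4326 libraries all had the high share. The part of this share in the differences was not tested further.

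**Figure D4:**
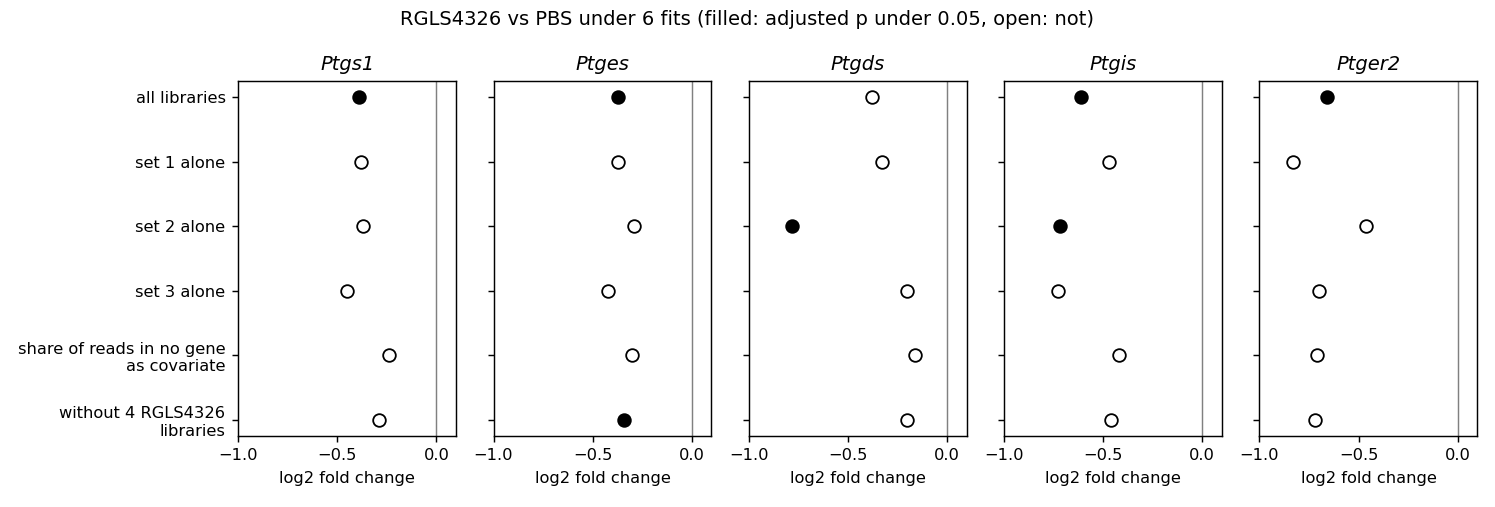
Log2 fold change of RGLS4326 vs PBS (horizontal axis) for *Ptgs1*, *Ptges*, *Ptgds*, *Ptgis* and *Ptger2* under 6 fits (rows), with filled points for an edgeR adjusted p under 0.05. Every point lies left of 0, and in the fit that adjusts for reads in no gene none is filled.

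**Figure D5:**
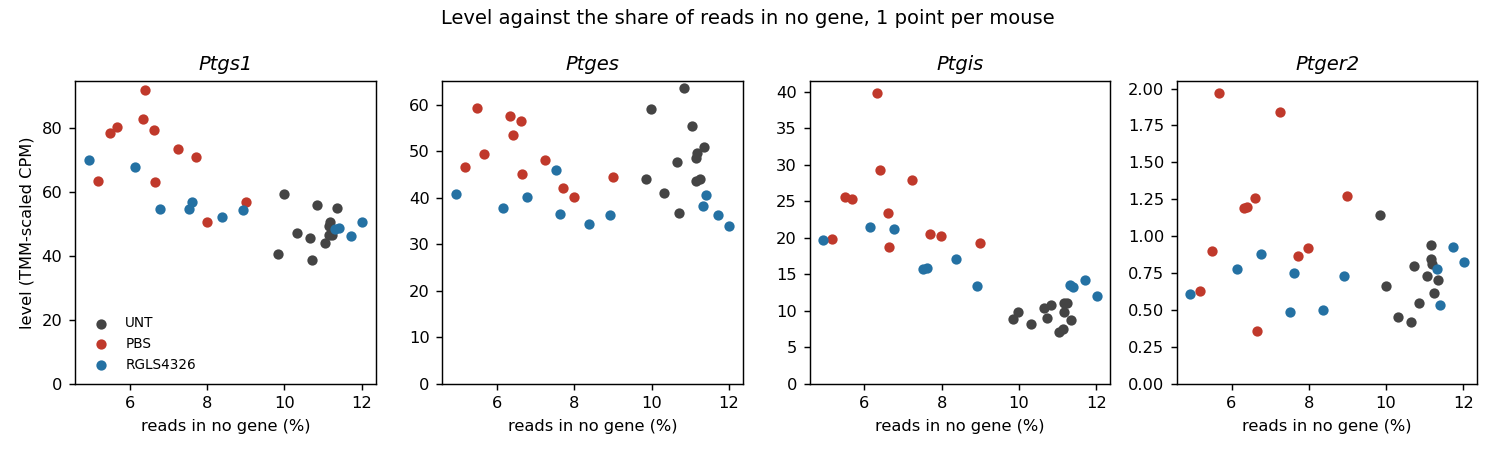
Level of *Ptgs1*, *Ptges*, *Ptgis* and *Ptger2* (vertical axes, TMM-scaled CPM, starting at 0) against the share of reads in no gene (horizontal axis, percent), 1 point per mouse, coloured by group. Of the 4 RGLS4326 mice at 11.32% or more, 3 lie above every UNT mouse on the horizontal axis, and the RGLS4326 points of *Ptges* lie at 34 to 46.0 CPM at low as well as at high shares.

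Set beside UNT mice, RGLS4326-treated kidneys differed in 7 of the 10 genes, where 77.7% of all tested genes were called. *Ptges* was among these 7 and *Ptger2* was not, the reverse of PBS vs UNT. RGLS4326 vs UNT shares its samples with the other 2 comparisons. *Pla2g4a* (1.23, SE 0.06), *Ptgds* (1.42, SE 0.16), *Ptgis* (0.78, SE 0.12) and *Ptger4* (1.58, SE 0.08) were higher by log2 fold change with no overlap between the groups, and *Ptgis* was at 0.48 in set 2. Groups without overlap were seen in 36.7% of all tested genes here. *Hpgd* remained lower (-0.69, SE 0.16, edgeR adjusted p = 0.000231), but was not called in set 1 (-0.59) or set 3 (-0.64) alone. *Ptges* was lower than in UNT mice (-0.35, SE 0.08, edgeR adjusted p = 0.000118), with 5 of 11 mice below the lowest UNT mouse, and this call was absent in set 3 alone (-0.21) and with scaling to total reads (-0.05, where the median of all genes was 0.326). *Ptgs1* was at the edge of the threshold (0.19, SE 0.09, edgeR adjusted p = 0.0483) and was called in 17 of 34 refits that left out 1 mouse. It was not called with DESeq2 (0.15, adjusted p = 0.111), RLE scaling, no filter on low counts, a fit of these groups alone, numbering set as a covariate, adjustment for the reads outside genes (0.03), the replicate block or any single numbering set. *Ptger2* was near the UNT level (-0.01, SE 0.21), and *Ptgs2* (0.31, SE 0.21) and *Ptger1* (-0.24, SE 0.13) did not pass the test. *Ptger1* was called lower there with DESeq2 (-0.28), RLE scaling, a fit of these groups alone, in set 2, and with adjustment for reads outside genes or for sex, and *Ptgs2* higher with scaling to total reads (0.63) and adjustment for reads outside genes (0.50).

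The rest of the pathway was examined in lists of genes by role. Of 12 other synthases and reductases, 4 were higher and 7 lower in PBS vs UNT, where 82.1% of all tested genes were called. *Hpgds*, the hematopoietic prostaglandin D synthase, rose from 1.47 ± 0.278 to 10.6 ± 2.98 CPM (log2 fold change 2.85, SE 0.16, edgeR adjusted p = 4.64e-18). *Cbr1*, a carbonyl reductase that can convert prostaglandin E2 to F2 alpha, fell from 332 ± 88.5 to 104 ± 46.7 CPM (-1.67, SE 0.18). *Ptgr2*, a prostaglandin reductase of the degradation route, fell by 1.19 on the log2 scale (SE 0.07). With RGLS4326 4 of the 12 were called by edgeR, 3 of them lower, near the 33.8% called over all tested genes. DESeq2 called 1 of the 12 higher and 2 lower, beside 36.4% of all tested genes. The values that follow are from edgeR. *Ptges2*, another prostaglandin E synthase, was lower (-0.26, SE 0.07, edgeR adjusted p = 0.0117), and so was *Fam213b*, a prostamide and prostaglandin F synthase (-0.43, SE 0.11, edgeR adjusted p = 0.00511). *Ptgr2* was higher (0.19, SE 0.07, edgeR adjusted p = 0.0343). *Akr1b7*, an aldo-keto reductase with prostaglandin F synthase activity, was lower (-1.89, SE 0.48, edgeR adjusted p = 0.00605), but its PBS values ran from 4.07 to 112 CPM with a median of 7.26, and the RGLS4326 values from 4.90 to 9.18 CPM with a median of 6.25.

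Prostaglandins leave and enter cells through transporters, of which *Slco2a1* (uptake before degradation) and *Abcc4* (export) rose in PBS vs UNT, by log2 fold changes of 0.87 (SE 0.11) and 0.80 (SE 0.10). The other 2 of the 4 transporters examined were not called, where 82.1% of all tested genes were. Of 4 tested other prostanoid receptors, 3 were lower, among them *Ptger3* and the thromboxane receptor *Tbxa2r* (-1.33, SE 0.10), and the prostacyclin receptor *Ptgir* was higher (1.28, SE 0.16). *Ptgir* and the prostacyclin synthase *Ptgis* were thus both higher in PBS-treated kidneys. With RGLS4326 none of these 4 transporters or 4 receptors was called by edgeR or DESeq2, beside 33.8% of all tested genes by edgeR. At an unadjusted p under 0.05 there were 1 transporter and 0 receptors, beside 7262 of the 15644 tested genes.

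Of 9 tested other phospholipases A2, 4 rose and 4 fell in PBS vs UNT, a share close to the 82.1% of all tested genes. *Pla2g7*, a secreted enzyme that hydrolyses platelet-activating factor, rose from 23.2 ± 5.37 to 94.3 ± 21.2 CPM (2.02, SE 0.13) and the lysosomal *Pla2g15* from 14.2 ± 1.64 to 48.4 ± 11.3 CPM (1.76, SE 0.11). *Pla2g2d* rose by 2.27 (SE 0.20) from a level of 0.136 CPM. *Pla2g7* (-0.40, SE 0.13, edgeR adjusted p = 0.0192) and *Pla2g15* (-0.55, SE 0.11, edgeR adjusted p = 0.00161) were lower with RGLS4326, and neither is specific to arachidonic acid release.

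Markers of kidney cell types were counted beside these results, since the 10 genes are made in different cells. The labelled tissue was matched by its markers: all 6 proximal tubule markers were present in every mouse, with a summed level of 8590 to 12300 CPM in UNT mice. In PBS vs UNT all 8 collecting duct principal cell markers, all 6 interstitial fibroblast markers and all 6 macrophage markers were higher, and all 6 proximal tubule markers were lower (43.1% of all tested genes were higher and 39% lower). The summed macrophage markers ran from 96.0 to 166 CPM in UNT mice, 631 to 1670 CPM in PBS-treated mice and 561 to 1100 CPM in RGLS4326-treated mice. Principal cell markers summed to 723 to 1120, 1250 to 2930 and 689 to 2610 CPM in the same order, fibroblast markers to 424 to 1080, 2190 to 4670 and 3050 to 4510 CPM, and proximal tubule markers to 8590 to 12300, 724 to 2610 and 1750 to 2930 CPM. In RGLS4326 vs PBS, 5 of 8 principal cell markers and 4 of 6 macrophage markers were lower, 5 of 6 proximal tubule and 5 of 6 endothelial markers were higher, and 1 of 6 fibroblast markers was higher, where 18.5% of all tested genes were lower and 15.3% higher. These calls come from the procedure without adjustment for reads outside genes, with which 0.569% of all genes were called. Mesothelial, platelet, smooth muscle and endothelial markers also moved. In PBS vs UNT, 2 of 3 mesothelial markers were higher, *Msln* among them (log2 fold change 5.38, SE 0.22), and 1 was lower. There 2 of 3 tested platelet markers were higher and 1 lower, 3 of 4 smooth muscle markers were higher and 1 lower, and 2 of 6 endothelial markers were higher and 4 lower. In RGLS4326 vs PBS, 2 of 3 mesothelial markers were lower, *Msln* among them (adjusted p = 0.00125 by edgeR), and 1 was higher, 2 of 3 platelet markers were lower, and none of the 4 smooth muscle markers was called by edgeR, while 1 was higher by DESeq2 and at an unadjusted p under 0.05. Of the thick ascending limb and macula densa markers, 4 of 5 were lower in PBS vs UNT and 1 (*Cldn16*, 0.59, SE 0.09) was higher, while *Ptgs2* was not called. With RGLS4326 2 of these 5 were higher and 1, *Cldn16*, was lower. No marker was at 0 in all libraries, and neutrophil markers were low, summing to at most 22.7 CPM. Both tested neutrophil markers, *S100a8* and *S100a9*, were higher in PBS vs UNT (2.53 each, SE 0.36), and against PBS they were at -0.82 and -0.87 with RGLS4326, not called by edgeR, with 1 called lower by DESeq2. The part of cell composition in the differences of the 10 genes was not tested.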

How the data were processed

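Kidney RNA of 34 mice was sequenced from stranded mRNA libraries. According to the labels and the study's methods, the authors trimmed reads with Trim Galore, mapped them with STAR to GRCm38 (mm10) and counted uniquely mapped reads with HTSeq (0.6.1). The deposited values were raw counts per gene symbol, 1 table per mouse, without normalization. The strand setting and annotation of the counting were not given in the sources used here. The counter's totals (no gene, ambiguous, not unique) were left out of library sizes and tests. No 2 tables were identical.

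Groups came from the labels, which hold more PBS-treated mice than the study gives for its sequencing comparison, and all 11 were used. Counts were scaled by TMM and tested with edgeR (4.0.16, R 4.3.3) after filterByExpr, in 1 fit of 3 groups over 34 libraries without a covariate, two-sided. The p-values measure the spread between mice. Alternatives were DESeq2 (1.42.0), other scalings, filters and covariates, numbering sets alone, a replicate block and leaving out each mouse. The fit was tested on simulated data. Gene IDs, exon lengths and 3′UTRs were matched by symbol to GENCODE M21. Replicate numbers were not used to pair mice across groups in the main fit.

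The 10 genes and all lists were chosen with earlier results of these data known. All 10 were named. From the other pathway lists, genes called in RGLS4326 vs PBS and, per list, the 3 called genes with the largest change in PBS vs UNT were named. Cell type markers were counted by list, and only some of them were named. Leaving out the 4 RGLS4326 libraries with most reads in no gene was an alternative chosen after seeing the data. *Ptgdr2*, *Adgre1* and *Ly6g* were not analysed here.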

Additional observations from a re-analysis of the deposited data

How the results depend on the processing

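In PBS vs UNT, 104 alternative values of the 7 called genes (leaving out a mouse aside) kept their direction, and 101 stayed called. The other 3 were *Ptger2* within each numbering set. In RGLS4326 vs PBS, all 59 values of the 4 called genes kept their direction and 41 stayed called. In RGLS4326 vs UNT, 91 of 105 values of the 7 called genes stayed called and 1 (*Ptgs1* in set 2) was reversed. The number of the 10 genes called in RGLS4326 vs PBS, 4, became 0, 2 and 0 in numbering sets 1, 2 and 3 alone, 0 when adjusted for the share of reads in no gene and 1 without the 4 RGLS4326 libraries highest in it. Of all tested genes, 0.343%, 25.5% and 0% were called in those sets, 0.569% with that adjustment and 2.1% without those 4 libraries. Each numbering set holds fewer mice than the main fit, and the cause of the lost calls was not tested. In RGLS4326 vs UNT the count of 7 became 4 in set 3 alone, where 55.8% of all tested genes were called. Leaving out 1 mouse at a time kept the counts at 7 in PBS vs UNT, 4 to 6 in RGLS4326 vs PBS and 6 to 7 in RGLS4326 vs UNT. The shares called over all tested genes were 81.1% to 82.4%, 25.6% to 39.6% and 76.8% to 79% in the same order. Adjusting for the share of reads in no gene also called *Ptgs2* (0.70) and *Ptger1* (-0.41) in PBS vs UNT. There the share cannot be separated from the group, since all UNT libraries had a higher share than all PBS libraries. *Ptgs1* in RGLS4326 vs UNT lost its call without UNT mouse 1, 3, 4, 7, 8, 10, 11 or 12, PBS mouse 3, 6 or 9, or RGLS4326 mouse 2, 3, 4, 8, 9 or 10. *Ptgds* in RGLS4326 vs PBS was called without UNT mouse 3 or 10, PBS mouse 8 or RGLS4326 mouse 4, 8 or 10, and *Ptger1* in RGLS4326 vs UNT without UNT mouse 10 or RGLS4326 mouse 2. Sex, read from *Ddx3y*, as a covariate left the 4 calls in place.

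Of the genes near 0, several changed sign without being called. In PBS vs UNT, *Ptges* was -0.02 with DESeq2 and with RLE scaling, -0.03 without the filter, -0.26 in set 2, -0.12 with the share covariate and -0.02 to 0.06 leaving out 1 mouse; *Ptger1* was 0.16 with total reads and 0.13 in set 3. In RGLS4326 vs PBS, *Pla2g4a* was -0.08 in set 1. *Ptgs2* was -0.32 in set 1, -0.20 with the share covariate, -0.10 without the 4 libraries and -0.01 to 0.15 leaving out 1 mouse. *Ptger1* was 0.10, 0.02 and 0.0037 under the first 3 of these, and *Ptger4* was 0.02 and 0.01 in sets 2 and 3. In RGLS4326 vs UNT, *Ptgs2* was -0.30 in set 1 and *Ptger1* 0.05 with total reads. *Ptger2* was 0.29 with total reads, 0.11 in set 3, 0.04 with the share covariate and -0.06 to 0.07 leaving out 1 mouse. *Ptgs1* was called in the main procedure there and was -0.04 in set 2.

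Mice with the same number did not deviate together: of 33 pairs 9 had a correlation over 0.1 (range -0.33 to 0.41). With the number as a replicate block, 7, 5 and 6 of the 10 genes were called in PBS vs UNT, RGLS4326 vs PBS and RGLS4326 vs UNT. Of all tested genes, 81.7%, 32.6% and 77.7% were called in the same fits. Counts of 11 to 65 limit *Ptger2*, and 29 to 189 limit *Ptgs2*.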

Other observations

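Arachidonic acid also feeds the lipoxygenase route to leukotrienes. Of 11 tested lipoxygenase and leukotriene genes, 8 rose and 2 fell in PBS vs UNT, with a median log2 fold change of 1.16 (0.038 over all tested genes, of which 82.1% were called). *Alox5ap*, the protein that presents arachidonic acid to 5-lipoxygenase, went from 2.43 ± 0.548 CPM (SD, n = 12) to 27.9 ± 7.89 CPM (n = 11), a log2 change of 3.51 (edgeR adjusted p = 2.07e-21, SE 0.15). *Alox8* rose from 0.234 ± 0.185 to 2.55 ± 0.317 CPM (3.40, SE 0.29), and *Cysltr1*, a receptor for cysteinyl leukotrienes, from 0.782 ± 0.154 to 6.05 ± 1.39 CPM (2.94, SE 0.14). With RGLS4326, 4 of the 11 were lower than with PBS (18.5% of all tested genes were lower): *Alox5ap* (-0.45, SE 0.14), *Alox8* (-0.73, SE 0.25), *Alox15* (-1.12, SE 0.33) and the leukotriene C4 synthase *Ltc4s* (-0.54, SE 0.15). The leukotriene B4 receptor *Ltb4r2* was higher (0.76, SE 0.27), on 1 to 34 counts per library. All 6 macrophage markers were higher in PBS vs UNT and 4 of 6 were lower with RGLS4326, and their part in these values was not tested.

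Of 12 genes that carry EP receptor signals onward, 4 rose and 4 fell in PBS vs UNT, with a median of -0.01, where 82.1% of all tested genes were called. The adenylyl cyclase *Adcy7* rose from 7.92 ± 1.66 to 55.3 ± 9.61 CPM (2.80, SE 0.12), *Adcy3* rose by a log2 change of 1.16 (SE 0.11), and the protein kinase A subunit *Prkar2b* was lower (-0.76, SE 0.16). With RGLS4326, 3 of the 12 were called, beside 33.8% of all tested genes: *Adcy7* (0.29, SE 0.11, edgeR adjusted p = 0.0474) and *Creb1* (0.30, SE 0.11, edgeR adjusted p = 0.0297) were higher, and *Prkaca*, the catalytic subunit of protein kinase A, was lower (-0.21, SE 0.07, edgeR adjusted p = 0.0158).

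The Y-linked *Ddx3y* passed 1 CPM in 6 of the 12 UNT mice, 6 of the 11 mice with PBS and 5 of the 11 with RGLS4326. In a fit with this as a covariate, edgeR called 35 of 15644 genes between the sexes and none of the 10 prostaglandin genes, of which *Ptger1* had the lowest adjusted p (0.209, male minus female log2 difference -0.33).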
